A study of Mus musculus with 6 samples.

Results

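A set of 9 genes of cellular oxygen sensing was followed: the hydroxylase genes Egln1, Egln2, Egln3 and Hif1an, the hypoxia-inducible factor (HIF) genes Hif1a, Epas1, Hif3a and Arnt, and Vhl. They were chosen by symbol, and all 9 were found among the 19938 genes on the arrays. The probe set of a gene was selected on its mean level over the 6 arrays, but each of these genes had only 1 probe set with a single gene symbol, so the rule left nothing to choose here. That Egln1 was among the largest rises of this series was known when the list was drawn up, so its adjusted p, taken from the fit across all genes, is no independent support.

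The samples were cultured bone marrow stromal cells of 6-month-old C57BL/6 mice, 3 cultures from mice whose label gives a knockout of the microRNA miR-188 (KO) and 3 from wild-type mice (WT). All 6 cultures were in the same adipogenic medium with 10% fetal calf serum. Its inducers were insulin at 5 µg/ml, the glucocorticoid dexamethasone at 1 µM and the phosphodiesterase inhibitor 3-isobutyl-1-methylxanthine at 0.5 mM. Each gave 6 µg of total RNA for 1 single-colour Affymetrix array, and values are log2 expression levels. The labels call the replicates biological but do not tie them to separate mice, so the spread behind the p-values may be that of cultures only. Neither the oxygen level of the incubator, nor the length of the induction, nor the extent of the deletion is stated in the labels.

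HIF is a dimer of an oxygen-labile alpha subunit and the stable partner ARNT, and it switches on genes that adapt cells to low oxygen. While oxygen is plentiful, the EGLN prolyl hydroxylases mark the alpha subunits, VHL recognises the mark and the subunits are destroyed, while the asparaginyl hydroxylase encoded by Hif1an blocks their contact with coactivators. Egln1 and Egln3 are themselves well-known HIF target genes, which closes a feedback loop, and low oxygen is known to restrain the adipogenesis of cultured precursor cells. HIF activity is set largely at the protein level, and arrays read RNA only.

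The microRNA that the KO label refers to lies on the X chromosome. Its mature arms are shown because the genotype label refers to it, with the seed (bases 2 to 8) in capitals, from RefSeq on GRCm38.p6.
mmu-miR-188-5p: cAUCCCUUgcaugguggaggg
mmu-miR-188-3p: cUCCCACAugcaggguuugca
The Mir188 probe set read 7.22, 7.22 and 7.13 on the KO arrays, against 7.22, 7.27 and 7.38 on the WT arrays, a difference of -0.10 (adjusted p = 0.348, limma). The labels do not say whether this probe set reads the mature microRNA, so it does not test the genotype, and KO stands below for the arrays labelled KO.

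Of the 9 genes, 4 were higher in KO and none was lower, at an adjusted or an unadjusted p under 0.05 (limma). Egln1, Egln3, Hif3a and Epas1 passed the test (adjusted p under 0.05 over all 19938 genes), while Egln2, Hif1an, Hif1a, Arnt and Vhl did not. Over all genes, 7.31% passed in either direction, 3.34% being higher and 3.97% lower in KO, against 4 of 9 here. The 9 genes were chosen with earlier results of these data known, so their count is no independent evidence. At an unadjusted p under 0.05 the shares over all genes were 9.43% higher and 11.2% lower. In the same 4 genes every KO value lay above every WT value, which was so for 11.4% of all genes, and 24.9% did not overlap in either direction. The median difference of the 9 genes was 0.02, against 0.00465 over all genes. All 9 had a mean level above 6.83, a background set at the 95th percentile of 1027 olfactory receptor genes, so none of the 9 was read from a dim probe set. Levels of different probe sets are not compared with one another.

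**Figure D1:**
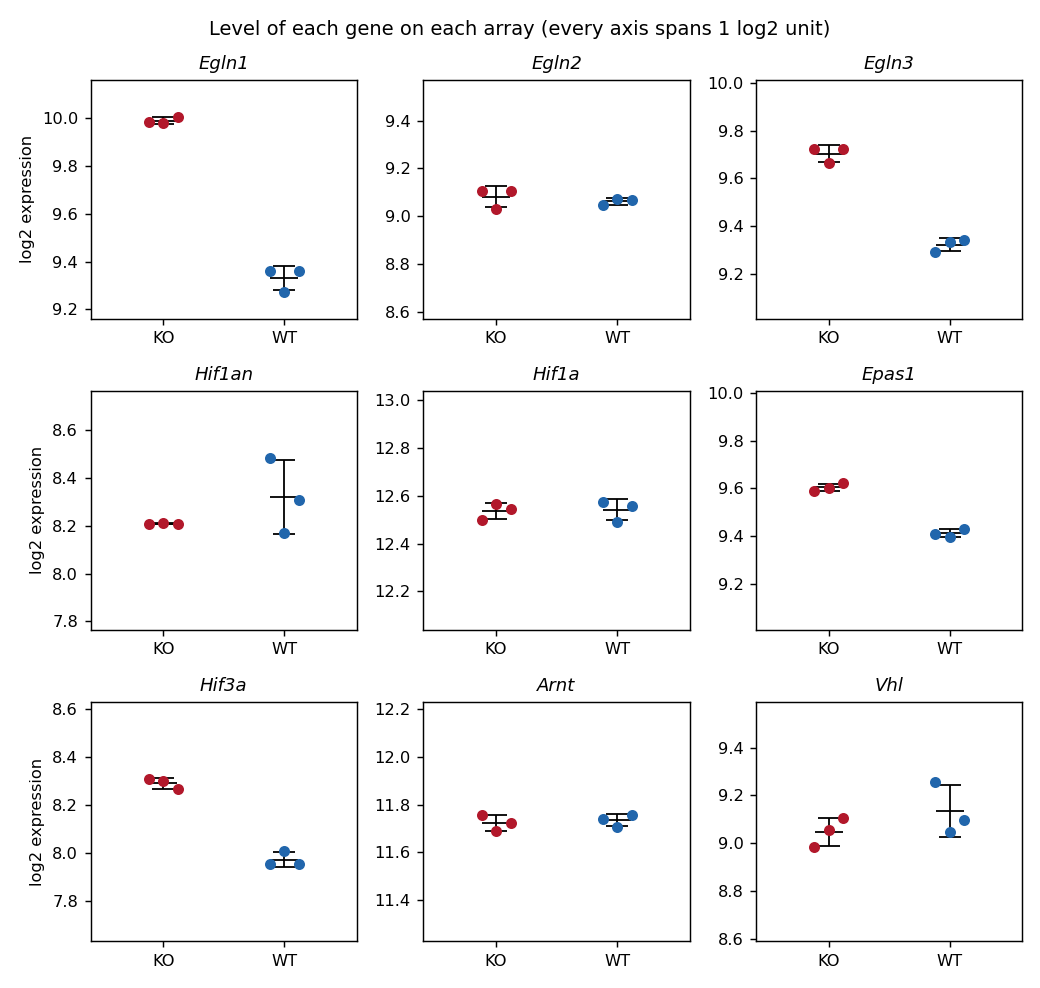
Log2 expression of each of the 9 genes on the 3 KO and 3 WT arrays (points), with the mean and SD of each genotype (black). Every vertical axis spans 1 log2 unit. KO and WT points are separate for Egln1, Egln3, Epas1 and Hif3a and overlap in the other panels.

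The prolyl hydroxylase genes divided by paralogue. Egln1, whose product is the main oxygen sensor that turns over HIF alpha subunits, read 9.98, 9.98 and 10.01 on the KO arrays, against 9.36, 9.27 and 9.36 on the WT arrays. The lowest KO array lay 0.62 above the highest WT array, and the 3 KO arrays were closer together than the 3 WT arrays. The mean was 9.99 ± 0.01 in KO and 9.33 ± 0.05 in WT (SD, n = 3 arrays each). This is a rise of 0.66 on the log2 scale (SE 0.04, adjusted p = 0.000978, limma) or 1.58-fold, and it ranked 9 among the rises of all 19938 genes.

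Egln3, the paralogue best known for strong induction by low oxygen, read 9.72, 9.66 and 9.72 on the KO arrays, against 9.29, 9.33 and 9.34 on the WT arrays. The genotypes were separated by 0.32, and the spread within each was small beside that gap. Egln3 rose by 0.38 (SE 0.03, adjusted p = 0.00359, limma) or 1.30-fold, which ranked 129 among all rises.

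Egln2, the third prolyl hydroxylase gene, read 9.11, 9.03 and 9.10 on the KO arrays, against 9.04, 9.07 and 9.07 on the WT arrays. The KO values enclosed the WT values. The difference was 0.02 with a 95% interval of -0.06 to 0.10 (adjusted p = 0.818, limma). That interval ends below those of Egln1 (0.57 to 0.75) and Egln3 (0.30 to 0.46). The differences between the paralogues were not themselves tested.

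The stretch of 250 bases before the annotated start is shown for the 3 prolyl hydroxylase genes, since they carry the contrast between called and uncalled paralogues. Capitals mark the core of the hypoxia response element, ACGTG or GCGTG on either strand (CACGT or CACGC when read on the other), with overlapping matches joined. The sequences are from RefSeq on GRCm38.p6, all on the minus strand: chr8:124949255-124949504 for Egln1, chr12:54203875-54204124 for Egln3 and chr7:27166803-27167052 for the first of 2 starts of Egln2.
Egln1: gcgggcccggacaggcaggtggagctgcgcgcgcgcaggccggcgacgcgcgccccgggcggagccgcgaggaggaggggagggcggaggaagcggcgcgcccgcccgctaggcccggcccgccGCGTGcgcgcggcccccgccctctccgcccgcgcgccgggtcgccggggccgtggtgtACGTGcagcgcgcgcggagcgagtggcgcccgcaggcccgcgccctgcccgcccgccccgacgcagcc
Egln3: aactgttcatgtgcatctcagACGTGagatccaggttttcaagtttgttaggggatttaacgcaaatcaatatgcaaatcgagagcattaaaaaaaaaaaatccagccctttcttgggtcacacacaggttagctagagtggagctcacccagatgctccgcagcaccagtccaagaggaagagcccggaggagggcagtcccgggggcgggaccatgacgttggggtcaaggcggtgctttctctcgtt
Egln2: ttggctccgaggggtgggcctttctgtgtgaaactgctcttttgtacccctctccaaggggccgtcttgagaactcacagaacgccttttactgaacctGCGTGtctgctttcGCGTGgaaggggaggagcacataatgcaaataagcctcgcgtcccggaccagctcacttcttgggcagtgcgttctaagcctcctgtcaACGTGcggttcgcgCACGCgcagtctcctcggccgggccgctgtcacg
The Egln1 stretch held 2 matches, which begin 126 and 68 bases before the start. The Egln3 stretch held 1 match, which begins 229 bases before the start. The stretch before the first start of Egln2 held 4 matches and that before its other start held 1, so the order of the paralogues by matches depends on the start used. The Egln1 stretch was 86.0% G and C, against a median of 52.4% over all promoters.

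Matches were common everywhere. Of all 32851 promoter stretches of this length, 38.6% held at least 1 match. By gene, counting any annotated start, 60.0% of the genes called higher in KO that had an entry held one, as did 63.6% of those called lower and 48.9% of those not called. Of the 9 genes, 8 had an entry and 6 of these held a match, namely the 3 prolyl hydroxylase genes, Hif1a, Hif3a and Arnt. Hif1an and Vhl held none in this window. The letters ACGTG also form part of the CACGTG element of other basic helix-loop-helix factors, and GCGTG is the core that the ARNT partner AHR binds. A match is a description of letters and not a binding site.

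The asparaginyl hydroxylase gene Hif1an did not pass the test. It read 8.21, 8.21 and 8.21 on the KO arrays, against 8.48, 8.17 and 8.31 on the WT arrays. KO replicates 1 and 3 had the same value. The KO values lay inside the WT range, and the WT SD of 0.16 was the widest among the 9 genes. The difference was -0.11 with a 95% interval of -0.29 to 0.07 (adjusted p = 0.485, limma). Its SE of 0.08 was the highest of the 9 genes.

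Among the alpha subunits, Hif1a did not pass the test. Hif1a encodes the broadly expressed subunit of the acute hypoxic response. It read 12.50, 12.57 and 12.54 on the KO arrays, against 12.58, 12.49 and 12.56 on the WT arrays, so the genotypes overlapped. The difference was -0.01, with a 95% interval of -0.10 to 0.08 (adjusted p = 0.956, limma), and its sign varied with the scaling and the arrays used.

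Epas1 encodes HIF-2 alpha, a subunit prominent in endothelial, stromal and erythropoietin-producing cells. It read 9.59, 9.60 and 9.62 on the KO arrays, against 9.41, 9.40 and 9.43 on the WT arrays. Every KO array exceeded every WT array, by at least 0.16. Epas1 rose by 0.19 (SE 0.03, adjusted p = 0.0152, limma) or 1.14-fold. The call was lost without KO replicate 3 (adjusted p = 0.0569), WT replicate 1 (adjusted p = 0.0545) or WT replicate 3 (adjusted p = 0.0727), with rises of 0.18 to 0.20 in these fits. Over all alternatives its adjusted p lay between 0.00379 and 0.110.

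Because Epas1 is also a feature of endothelial cells, endothelial markers are given beside it. Of 12 such genes, 6 lay above background, and none was called higher in KO (3.34% of all genes were called higher and 3.97% lower). One was lower, the VEGF receptor gene Kdr, named after its values were seen, with a mean of 6.85 ± 0.08 in KO and 7.14 ± 0.10 in WT (SD, n = 3 arrays each; adjusted p = 0.0425, limma). The Kdr call was lost in every fit without 1 array but that without WT replicate 2 (adjusted p = 0.0713 to 0.177 in the lost fits), and after quantile normalization again (adjusted p = 0.0567) or cyclic loess (adjusted p = 0.0579). The KO mean of Kdr, 6.85, lay close to the background of 6.83. Pecam1, Emcn and Tek were among the markers below background in both genotypes, while Vwf, Egfl7, Cldn5, Cdh5 and Tie1 were above it. The summed log2 level of the 12 genes ranged from 81.1 to 81.3 over the KO arrays and from 81.0 to 82.0 over the WT arrays. In bulk cultures, fewer cells of a type and less RNA per cell cannot be told apart.

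Hif3a encodes the third alpha subunit, whose splice forms include some that oppose the other HIF factors. It read 8.31, 8.30 and 8.27 on the KO arrays, against 7.95, 8.01 and 7.95 on the WT arrays. The genotypes were separated by 0.26, and WT replicates 1 and 3 had the same value. Hif3a rose by 0.32 (SE 0.03, adjusted p = 0.00493, limma) or 1.25-fold. The labels do not say which splice forms its probe set reads. Its promoter stretch (chr7:17062428-17062677, minus strand) is shown as that of the called alpha subunit with an entry, with capitals as above.
Hif3a: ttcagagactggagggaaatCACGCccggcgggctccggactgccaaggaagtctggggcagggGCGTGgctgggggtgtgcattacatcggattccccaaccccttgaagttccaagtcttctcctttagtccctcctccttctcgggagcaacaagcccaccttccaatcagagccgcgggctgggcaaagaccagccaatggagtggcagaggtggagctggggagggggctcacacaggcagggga
The Hif3a stretch held 2 matches, which begin 230 and 186 bases before the start.

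The shared partner and the ubiquitin ligase receptor did not pass the test. Arnt, the constitutive dimer partner of all 3 alpha subunits, read 11.76, 11.69 and 11.72 on the KO arrays, against 11.74, 11.71 and 11.76 on the WT arrays. The groups overlapped, and the difference was -0.01 (95% interval -0.09 to 0.07, adjusted p = 0.905, limma). Vhl, which recognises hydroxylated HIF alpha, read 8.99, 9.05 and 9.10 on the KO arrays, against 9.26, 9.05 and 9.10 on the WT arrays. WT replicate 1 stood above the other 5 arrays, and the groups overlapped. The Vhl difference was -0.09 (95% interval -0.24 to 0.06, adjusted p = 0.513, limma).

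**Figure D2:**
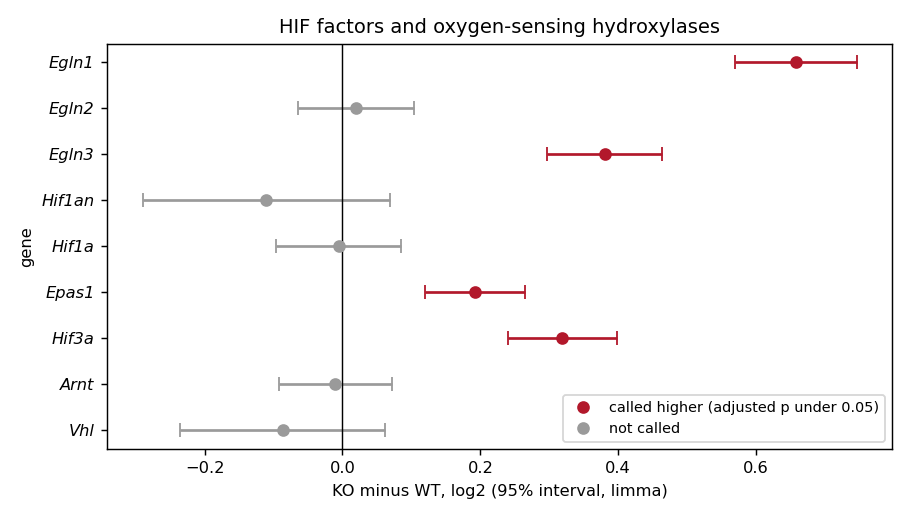
Difference between KO and WT for each of the 9 genes on the log2 scale (points), with the 95% interval from limma (bars). The intervals of Egln1, Egln3, Epas1 and Hif3a lie above 0, and those of the other genes include 0.

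Set against all genes, the differences of Egln1, Egln3 and Hif3a were larger in size than those of 99.9%, 98.7% and 97.7% of genes. For Epas1 the share was 91.4%. The differences of Hif1a and Arnt were larger than those of only 5.75% and 10.3% of genes.

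**Figure D3:**
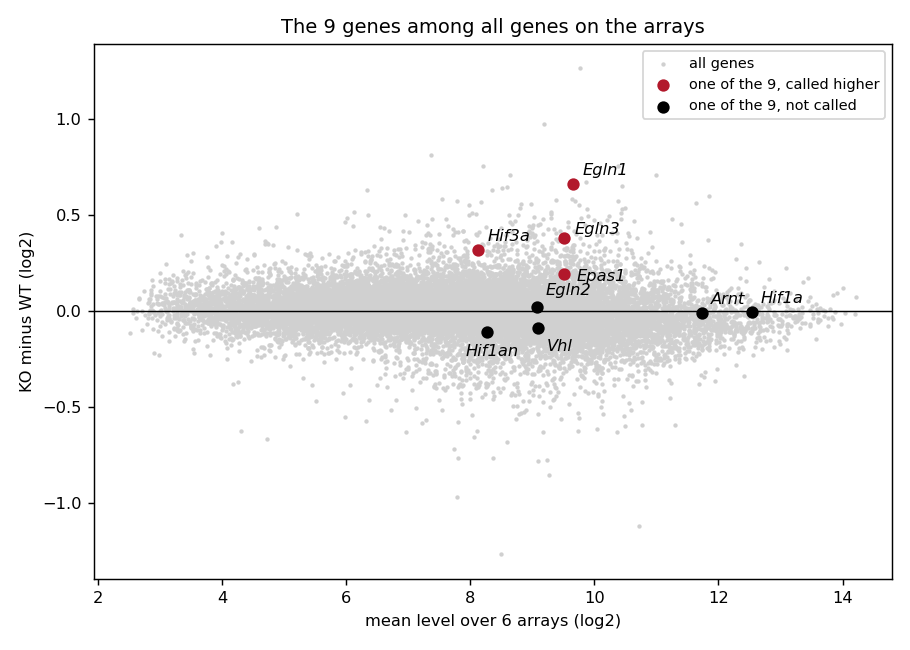
Difference between KO and WT against the mean level over 6 arrays, both on the log2 scale, for 19938 genes (grey) and the 9 genes of oxygen sensing (red where called higher, black where not called). Egln1 lies near the upper edge of the cloud, and Hif1a and Arnt lie on the zero line at its right end.

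The partners of the HIF dimer, subunits of the VHL ligase and regulators of both formed a list of 19 genes, of which 17 were measured. Of these, 2 rose, none fell and 15 did not pass the test, and the median difference was -0.05. Ep300, the acetyltransferase that HIF recruits as a coactivator, had a mean of 10.94 ± 0.09 in KO and 10.68 ± 0.04 in WT (SD, n = 3 arrays each), a rise of 0.26 (adjusted p = 0.0352, limma). The adjusted shares over all genes were 3.34% higher and 3.97% lower. At an unadjusted p under 0.05, 3 of the 17 genes were higher and 2 lower, against 9.43% and 11.2% of all genes. Wsb1, a ubiquitin ligase receptor, rose by 0.24 (adjusted p = 0.0195, limma). Neither call was firm. That of Ep300 was lost without any 1 of the 6 arrays (adjusted p = 0.0583 to 0.148), and that of Wsb1 was lost in every fit but the one without WT replicate 2 (adjusted p = 0.0558 to 0.0847 in the lost fits).

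The subunits that hold VHL in its ligase did not pass the test. Their differences were -0.06 for Elob (adjusted p = 0.523) and -0.08 for Eloc (adjusted p = 0.364), the elongins that bind VHL. They were -0.13 for the scaffold Cul2 (adjusted p = 0.185) and -0.08 for the RING subunit Rbx1 (adjusted p = 0.248, limma throughout). All 4 were below 0, as was Vhl, while 10442 of all 19938 genes were above 0. Over the alternative settings the adjusted p lay between 0.246 and 0.960 for Elob and between 0.166 and 0.686 for Eloc. It lay between 0.0496 and 0.438 for Cul2 and between 0.104 and 0.653 for Rbx1 (limma). The groups did not overlap for Cul2 and Rbx1. All KO values lay below all WT values in 13.5% of the genes on the arrays.

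ARNT also pairs with proteins outside the HIF group. Of 7 genes for such partners 1 rose, none fell and 6 did not pass, with the same counts at an unadjusted p under 0.05 (limma). Over all genes, 3.34% were higher and 3.97% lower after adjustment, and 9.43% higher and 11.2% lower without it. The one that rose was Ahr, the ligand-activated receptor for dioxins and related compounds, with a mean of 11.12 ± 0.04 in KO and 10.86 ± 0.02 in WT (SD, n = 3 arrays each). Ahr rose by 0.26 (SE 0.04, adjusted p = 0.00962, limma). With WT replicate 3 left out it missed the threshold (adjusted p = 0.0662), and over all alternatives the adjusted p lay between 0.000961 and 0.0850. Only 3 of these 7 genes lay above background.

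Of 33 measured hypoxia-induced genes outside glycolysis, 12 rose, none fell and 21 did not pass, with a median difference of 0.18. At an unadjusted p under 0.05, 19 were higher and 1 lower (limma), against 9.43% and 11.2% of all genes. The share called higher after adjustment was 36.4%, against 3.34% of all genes. The list was drawn up with the rises of several of its genes already known, so its count is no independent evidence. Haem oxygenase Hmox1 had a mean of 11.35 ± 0.01 in KO and 10.64 ± 0.02 in WT (SD, n = 3 arrays each). Angptl4, an inhibitor of lipoprotein lipase, rose by 0.51 and Ddit4, an inhibitor of mTOR signalling, rose by 0.36 (adjusted p = 0.00184 and 0.00290, limma). The 3 WT arrays had the same Ddit4 value, so its WT spread was not measured. All 3 KO values or all 3 WT values were the same in 825 of the 19938 genes. Bnip3, a mitophagy receptor, rose by 0.37 (adjusted p = 0.00533, limma).

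The angiogenic factor gene Vegfa rose by 0.20, with a mean of 12.04 ± 0.02 in KO and 11.84 ± 0.02 in WT (SD, n = 3 arrays each; adjusted p = 0.0130, limma). Its call was lost without KO replicate 3 (adjusted p = 0.0518) or WT replicate 3 (adjusted p = 0.0692). Carbonic anhydrase Car9, a gene often used as a marker of hypoxia, was below background in both genotypes, with a difference of -0.03 (adjusted p = 0.745, limma). Without WT replicate 3 the list had 6 calls in place of 12, against 189 in place of 1457 over all genes.

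Of 21 measured genes of glycolysis and glycogen known to be induced by hypoxia, 10 rose, none fell and 11 did not pass, with a median difference of 0.17. At an unadjusted p under 0.05, 12 were higher and none lower (limma), against 9.43% and 11.2% of all genes. After adjustment 3.34% of all genes were higher. This list, too, was drawn up with earlier results known. Glycogen synthase Gys1 rose by 0.55, phosphofructokinase Pfkl by 0.42 and the glycogen-targeting subunit gene Ppp1r3c by 0.81 (adjusted p = 0.00139, 0.00339 and 0.00386, limma). The glucose transporter gene Slc2a1 rose by 0.35 (adjusted p = 0.00445, limma). Pdk1, the kinase that shuts pyruvate dehydrogenase, had a difference of 0.36 and a large error (SE 0.11, adjusted p = 0.121), and phosphoglycerate kinase Pgk1 differed by -0.02 (adjusted p = 0.777, limma). Of 24 listed genes, 3 were not analysed here. The 10 calls became 6 when KO replicate 1 was left out, 5 for KO replicate 3, and 4 for WT replicate 1 or WT replicate 3. Over all genes the 1457 calls became 824 and 612 without KO replicates 1 and 3. They became 495 and 189 without WT replicates 1 and 3.

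The EGLN enzymes and the product of Hif1an belong to a large class of oxygenases that use iron and 2-oxoglutarate. Of 51 other measured genes of that class, 7 rose, 2 fell and 42 did not pass, against 3.34% higher and 3.97% lower over all genes, and the median difference was 0.01. Among those that rose were the histone demethylase genes Kdm2a, by 0.23, and Kdm4b, by 0.29, and the ribosomal oxygenase gene Riox2, by 0.31 (adjusted p = 0.0102, 0.0115 and 0.0121, limma). The falls were those of a pair of collagen-modifying enzymes. P4ha3, a collagen prolyl hydroxylase subunit, fell by 0.41 (adjusted p = 0.0102), and the lysyl hydroxylase Plod3 fell by 0.17 (adjusted p = 0.0218, limma). The 3 WT arrays had the same P4ha3 value as well. Plod3 did not pass after quantile normalization again (adjusted p = 0.0986) or cyclic loess (adjusted p = 0.0670).

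Calls in this class varied with the arrays used, and with array weights they numbered 20, against 3418 of all genes. Without WT replicate 3 none of the 51 genes passed (limma; 11 had an unadjusted p under 0.05, as did 15.2% of all genes), with adjusted p of 0.0681 for Kdm2a, 0.0652 for Kdm4b, 0.0714 for Riox2, 0.0679 for P4ha3 and 0.109 for Plod3. The 9 calls became 5 when KO replicate 1 was left out, 4 for KO replicate 2 or WT replicate 1, and 2 for KO replicate 3. Over all genes the 1457 calls became 824, 828 and 612 without KO replicates 1, 2 and 3. They became 495 and 189 without WT replicates 1 and 3. In the fit lacking KO replicate 3, Kdm4b (adjusted p = 0.0547), Riox2 (adjusted p = 0.0568) and Plod3 (adjusted p = 0.0733) were lost. In the fit lacking WT replicate 1, Kdm4b (adjusted p = 0.0562), P4ha3 (adjusted p = 0.0558) and Plod3 (adjusted p = 0.0533) were lost. Plod3 was also lost without KO replicate 2 (adjusted p = 0.0611) or WT replicate 2 (adjusted p = 0.0602). Of the hydroxylase genes described first, Egln1 and Egln3 kept their calls in all 6 of these fits.

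**Figure D4:**
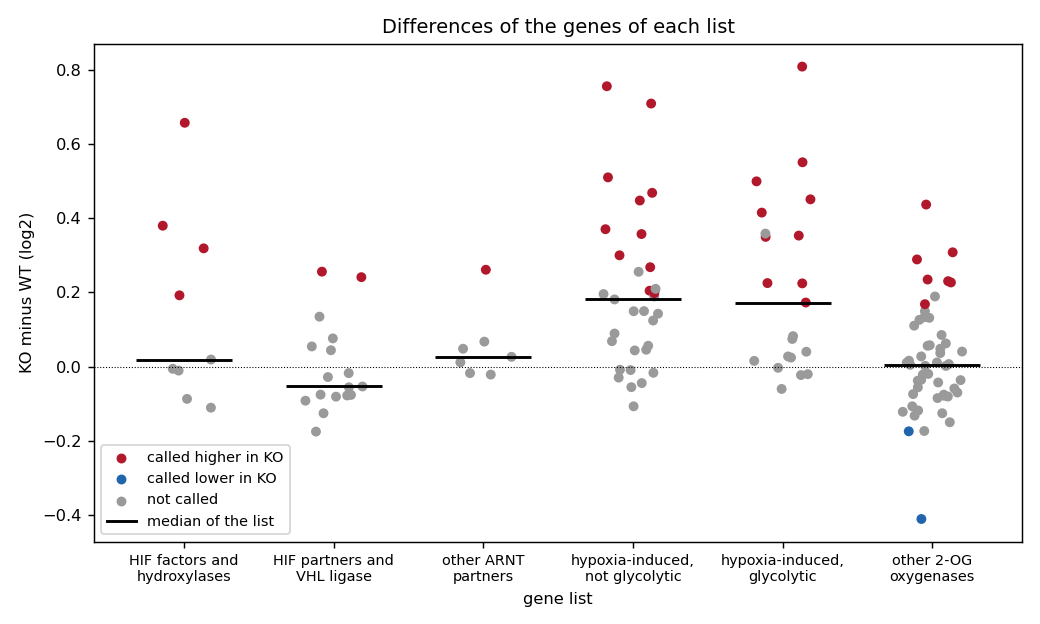
Difference between KO and WT on the log2 scale for the genes of 6 lists (points), with the median of each list (black bar). Red points were called higher in KO, blue points lower and grey points were not called (2-OG, 2-oxoglutarate). The medians of both lists of hypoxia-induced genes lie at 0.18 and 0.17, and those of the other lists between -0.05 and 0.03.

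The genes whose profile over the 6 arrays lay nearest to that of Egln1 were Oas2, Ier3, A4galt, Gda and Hmox1. Likeness was the Euclidean distance between log2 profiles, each centred on its own mean, and it was 0.08 for Oas2, the nearest, and 0.09 for Hmox1, the fifth. Their differences between KO and WT ran from 0.63 for Gda to 0.71 for Hmox1, around the 0.66 of Egln1, so the measure mainly picked genes with a rise of that size. Nearest to Hif1a were Pafah1b2, Cd2bp2, Rpl5, Cd164 and Smurf2, at 0.01 to 0.03, all with differences between -0.02 and -0.00355.

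As to robustness, Egln1 passed in all 14 alternative settings, with rises of 0.63 to 0.68 and adjusted p of 5.09e-05 to 0.0340. Egln3 and Hif3a passed in 13 of 14, with rises of 0.36 to 0.40 and of 0.31 to 0.34. Epas1 passed in 10 of 14. None of the 5 other genes passed in any setting. Egln2 kept a positive difference and Hif1an and Vhl a negative one throughout, while Hif1a ranged from -0.03 to 0.04 and Arnt from -0.03 to 0.05. Taking the mean of a gene's probe sets could not change the values of the 9 genes, as each had 1 probe set. Leaving out dim genes, the trended, robust variance prior, the replicate block and adjustment over all probe sets changed the adjusted p but not the differences.

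**Figure D5:**
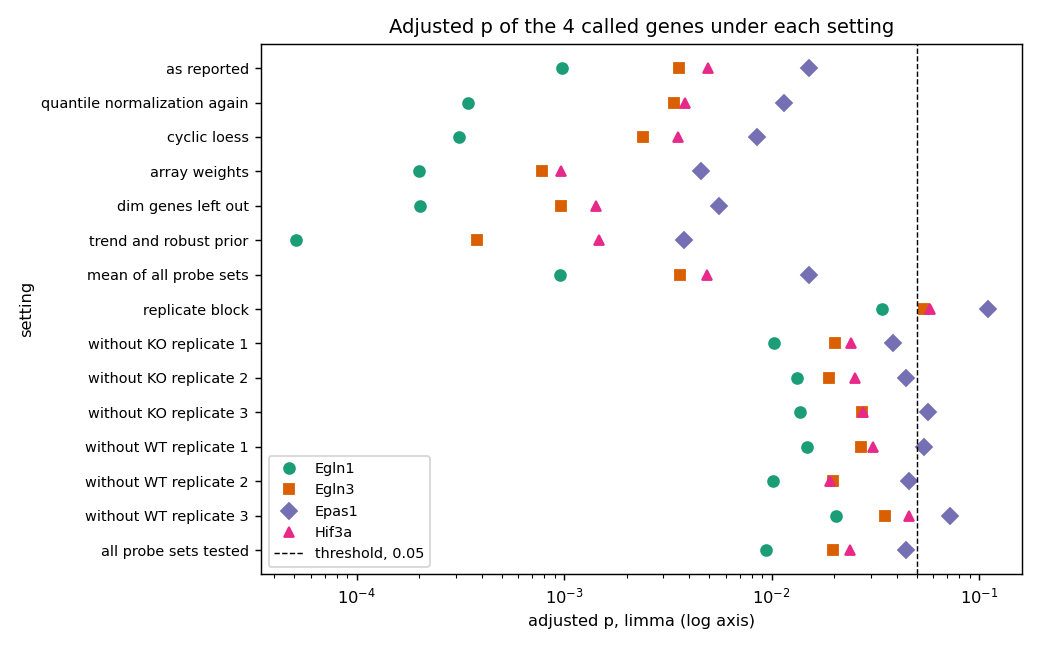
Adjusted p from limma (horizontal log axis) of the 4 called genes in the fit as reported and in 14 other settings (rows), with the threshold of 0.05 (dashed). Points right of the dashed line no longer passed. Egln1 stays left of the line in every row, and Epas1 crosses it in 4.

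For the series as a whole, 666 genes were called higher and 791 lower in KO. The share of calls that were higher was 45.7%, against 57.4% after quantile normalization again. Arrays correlated across probe sets at 0.994 to 0.997 within a genotype and at 0.991 to 0.995 between genotypes. Of 13 measured stromal markers 12 lay above background, Lepr being the exception. Over all 19938 genes, 13090 lay above it, so this is a weak check of identity. Of the 13 stromal markers 2 were called higher and 5 lower in KO, against 3.34% and 3.97% of all genes. Their summed log2 level ranged from 121.0 to 121.4 over the KO arrays and from 122.0 to 122.4 over the WT arrays. Of 10 adipocyte markers 8 lay above background, while Adipoq and Lep were below it in both genotypes. Of the 10, 1 was higher (Lipe) and 3 were lower, against 3.34% and 3.97% of all genes, and 6 did not pass. Their median difference was -0.04. Their sums were 75.6 to 76.0 in KO against 77.5 to 78.0 in WT, a gap carried mostly by Pparg, the adipogenic nuclear receptor, with a mean of 7.86 ± 0.15 in KO and 9.12 ± 0.07 in WT (SD, n = 3 arrays each; named after its values were seen). Of 14 macrophage markers 4 lay above background and 1 was lower in KO, with sums of 92.8 to 93.6 in KO against 92.1 to 93.5 in WT. None of 6 erythroid markers was called, with sums of 41.9 to 42.0 in KO against 41.4 to 42.4 in WT. The part of these shifts in the differences of the 9 genes was not tested.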

How the data were processed

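The values deposited by the authors are on a log2 scale. The submitters' processing notes list RMA, Partek and Affymetrix Expression Console, with no versions or order. RMA corrects background, brings arrays to a common scale and summarises probes, so changes are relative to other genes. Of 35556 probe sets, 21789 had 1 gene symbol in the platform annotation. Symbols were updated by gene identifier (21698 matched, RefSeq on GRCm38.p6), and the probe set with the highest mean stood for each of 19938 genes. Such a choice arose for 999 genes. Among the named genes, Rpl5 had 5 such probe sets, Pgk1 had 3, and Bnip3, Elob, Rbx1 and Smurf2 had 2 each. Whether each chosen probe set reads only its own gene was not tested. The test was limma 3.58.1 (lmFit and eBayes, R 4.3.3) on KO against WT, two-sided, with Benjamini-Hochberg adjustment over all genes and no filter. Calls needed an adjusted p under 0.05. The test was checked on simulated data. Arrays have no read depth, and their number limits the precision.

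The 9 genes and the lists were chosen with earlier results of these data known. Besides the 9, the text names the 3 genes with the smallest p called in each direction in each pathway list, 11 preset genes, and the 5 nearest profiles to Egln1 and to Hif1a. Some cell type markers (Kdr, Pecam1, Emcn, Tek, Vwf, Egfl7, Cldn5, Cdh5, Tie1, Lepr, Pparg, Adipoq, Lep and Lipe) were named after their values were seen. Of the listed genes, those with no probe set of their own were not analysed here. The alternatives are given in the closing section. One of them, adjustment over all probe sets, was added after seeing the data. Background correction could not be varied from these values.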

Additional observations from a re-analysis of the deposited data

How the results depend on the processing

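The count of all called genes, 1457 as reported, was 3418 with array weights, which give WT replicate 3 a weight of 7.41, 2192 without dim genes and 2275 with a trended, robust variance prior. It was 189 to 932 without 1 array. Of the calls, 45.7% were higher in KO, against 57.4% after quantile normalization again and 56.3% after cyclic loess. The replicate numbers are shared by both genotypes, but same-numbered arrays did not deviate together (correlations of -0.30, -0.26 and -0.02 across genes). Deviations were from each genotype's mean, so a negative value entails some positive covariance between KO and WT arrays with different numbers. Whether such arrays share a batch was not tested. With the replicate block 52 genes were called, and 1 of the 9 genes, Egln1 (adjusted p = 0.0340). Egln3 (adjusted p = 0.0541), Hif3a (adjusted p = 0.0577) and Epas1 (adjusted p = 0.110) were not. Without 1 array, 3 or 4 of the 9 genes were called. With array weights the calls among hypoxia-induced genes outside glycolysis numbered 20 in place of 12, those among other oxygenases 20 in place of 9 and those among HIF partners 4 in place of 2. With the replicate block they numbered 3 among the hypoxia-induced genes outside glycolysis and 2 in place of 10 among the glycolytic genes. They were 0 among the other oxygenases, HIF partners and other ARNT partners. At an unadjusted p under 0.05 in that fit (limma) the counts in these lists were 14, 4 and 1. These counts were 27.5%, 23.5% and 14.3% of the lists, against 16.1% of all genes. Of 441 alternative values for 34 other named genes, 389 kept the direction and the side of the threshold, or were uncalled in both fits, 51 fell short of the threshold, 1 came to pass it (Cul2 with array weights, adjusted p = 0.0496) and none reversed. The median difference over all genes stayed within 0.02 of 0 in every setting.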
